A study of Rattus norvegicus with 16 samples.

Results

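The genes described here are 7 enzymes and carriers of steroid, retinoid and xenobiotic metabolism in cultured rat islets: the glucuronosyltransferases Ugt2b15 and Ugt2b35, the sulfotransferase Sult2b1, the hydroxysteroid dehydrogenase Hsd17b2, the aldehyde-oxidizing enzymes Aldh1a1 and Aox1, and the retinol-binding protein Rbp7. They are 7 of 14217 genes measured, on 8 of the array's 31099 probe sets, because Sult2b1 has 2. They were picked by name after the differences between the groups of these same arrays were known, so their levels and differences are given as a description, without a test. Genes of the surrounding pathways, listed by role, were tested. Those lists were also drawn up with earlier results of these data known.

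The RNA came from whole pancreatic islets of male Wistar rats aged 8 weeks, cultured in RPMI medium with 8 mM glucose and 10% fetal bovine serum, and was hybridized to 1-colour Affymetrix arrays. Untreated islets (n = 5 arrays) received no virus. Islets labelled Adβgal (n = 6) received an adenovirus that makes bacterial β-galactosidase, the control virus, and islets labelled AdNkx6.1 (n = 5) received an adenovirus that makes Nkx6.1, a transcription factor of insulin-producing beta cells. Both viruses were present for 18 h, at the same approximate particle concentration per the labels' protocols, and all islets were collected at 48 h. The labels call the arrays biological replicates but do not say how many animals each one pools, and the promoter that drives the delivered genes is not given in the sources used here. A preparation of whole islets holds several cell types, so fewer cells of a type and less RNA per cell cannot be told apart.

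Foreign compounds and lipid hormones are handled in stages. Oxidizing enzymes such as aldehyde dehydrogenases, aldehyde oxidase and hydroxysteroid dehydrogenases change the functional group of a molecule, and conjugating enzymes then attach glucuronic acid or sulfate, which makes it more soluble and usually ends its action as a hormone. Retinol, the circulating form of vitamin A, is held inside cells by small binding proteins, oxidized to retinaldehyde and then, by enzymes of the Aldh1a family, to retinoic acid, a ligand of nuclear receptors. Most of these enzymes are best known from liver, gut, skin and steroid-producing glands rather than from islets.

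The arrays carried the hormone genes of islets: Ins2 and Gcg had mean log2 intensities of 14.76 to 14.82 and 14.59 to 14.62 over the 3 groups. Albumin (Alb), the defining hepatocyte product, lay between 4.49 and 5.2 on all arrays. The hepatocyte markers ranged widely: of 13 measured, the dimmest had group means of 3.41 to 3.51 and the brightest of 12.3 to 12.75. The brightest acinar marker had group means of 13.76 to 14.04. Median intensity per array ran from 264.8 to 296.2. The probe set for Nkx6-1 was lower with AdNkx6.1 (11.43 ± 0.17, SD, n = 5) than with Adβgal (11.9 ± 0.19, n = 6), so it does not check the labels; whether it reads the delivered transcript is not given in the sources used here. Adβgal arrays varied more among themselves in markers of other cell types than the arrays of the other groups. The mean deviation of 23 measured acinar markers (of 25 listed), relative to their average over all arrays, ran from -1.06 to 1.76 (log2) in Adβgal, from -0.73 to 0.12 in untreated and from -1.23 to 0.35 in AdNkx6.1 islets.

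Ugt2b15 and Ugt2b35 are close relatives, and their start regions are shown because, of the 6 genes with a promoter in the RefSeq table, only this pair had a run of over 9 bases in common. Both lie on the plus strand of chromosome 14 in the rat build GRCr8 of RefSeq, with 2 protein-coding genes between them. Each window below holds 250 bases before and 50 bases after the annotated start, written 5′ to 3′, at chr14:21122616-21122915 for Ugt2b15 and chr14:21208191-21208490 for Ugt2b35. Capitals mark the longest run that both share, 31 bases.
Ugt2b15: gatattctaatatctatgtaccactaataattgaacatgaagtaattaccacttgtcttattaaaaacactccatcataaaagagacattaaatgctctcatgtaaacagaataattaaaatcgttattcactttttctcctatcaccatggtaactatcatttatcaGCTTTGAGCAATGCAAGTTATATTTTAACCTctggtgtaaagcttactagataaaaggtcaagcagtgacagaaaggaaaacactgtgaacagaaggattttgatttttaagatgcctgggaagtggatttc
Ugt2b35: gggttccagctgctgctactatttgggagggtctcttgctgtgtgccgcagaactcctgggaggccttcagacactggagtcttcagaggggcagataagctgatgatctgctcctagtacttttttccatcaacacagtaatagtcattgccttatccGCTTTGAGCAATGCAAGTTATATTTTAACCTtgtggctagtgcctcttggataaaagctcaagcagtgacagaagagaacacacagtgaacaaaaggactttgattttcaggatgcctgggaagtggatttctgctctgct

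Aligned end to end, these windows had 198 identical bases of 300 (66%), against 141 to 165 in the 14 other pairs among the 6 promoters, whose longest common run was 9 bases. The run lies at bases 169 to 199 of the Ugt2b15 window and at bases 160 to 190 of the Ugt2b35 window, upstream of the start in both. G and C make up 31.7% of the Ugt2b15 window and 46.7% of the Ugt2b35 window. The motifs searched, on both strands, were TAATTA (the core read by many homeodomain proteins), AGGTCA (read by nuclear receptors), its extension AAAGGTCA (read by NR4A receptors as monomers), TGANTCA (read by AP-1) and TATAAA (the TATA box). Ugt2b15 held TAATTA at 2 places, 208 and 138 bases before the start, a motif that 5.36% of 33469 rat promoters of the same length held. It also held AAAGGTCA, and with it the AGGTCA that this motif includes, 29 bases before the start; 1.43% of all promoters held the longer and 16.2% the shorter motif. In the Ugt2b35 window the matching bases differ by G226C, counted from base 1 of the Ugt2b15 window, and none of the motifs was found. TGANTCA was found in the Aox1 window only, 234 bases before the start (7.33% of all promoters), and TATAAA in 0 of the 6 windows (14.2% of all promoters). The motifs were chosen after these promoters were read, so the shares do not measure how unusual a match is. They were also not matched to the G and C content of a window. A match describes the letters of the window and is not a binding site.

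Ugt2b15, known for the glucuronidation of androgens and phenols, stood at log2 intensities of 5.81, 6.15, 5.45, 5.93 and 5.36 in the 5 untreated preparations. In Adβgal islets it ran from 4.85 to 5.9 with a median of 5.6, and in AdNkx6.1 islets it was 3.29, 3.8, 3.74, 3.15 and 3.27. All 5 AdNkx6.1 values lay below all others, and the untreated and Adβgal values overlapped. The difference between AdNkx6.1 and Adβgal was -2.03 ± 0.21 (log2 ± SE from the limma fit), a 4.1-fold lower level, and against untreated islets the level was 4.9-fold lower (-2.29 ± 0.21). Both folds rest on a dim AdNkx6.1 level and are not exact. Adβgal minus untreated was -0.26 ± 0.21, and this small difference fell to -0.13 without Adβgal replicate 6 and to -0.16 without untreated replicate 2.

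Ugt2b35 ordered the groups differently from its neighbour. Untreated values were 4.22, 4.58, 4.78, 4.69 and 4.3, Adβgal values ran from 4.85 to 6.47 with a median of 5.69, and AdNkx6.1 values were 3.93, 3.59, 3.73, 3.86 and 3.71. No 2 of the groups overlapped, and the order was Adβgal, untreated, AdNkx6.1, although only 0.07 separated the lowest Adβgal from the highest untreated value. AdNkx6.1 was 3.62-fold lower than Adβgal (-1.85 ± 0.24) and 1.68-fold lower than untreated islets (-0.75 ± 0.25), and Adβgal was 2.15-fold higher than untreated islets (1.1 ± 0.24). These folds rest on dim levels and are not exact.

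The Adβgal values of Ugt2b35 moved with acinar, leukocyte, duct and, less evenly, endothelial and stellate and fibroblast markers. They did not move with hepatocyte or islet endocrine markers. Its mean was 5.12 on Adβgal replicates 1 to 3 (4.85 to 5.57) and 6.12 on replicates 4 to 6 (5.81 to 6.47). The acinar list stood at 0.01, -1.06 and 0.48 on the first of these sets and at 1.76, 1.1 and 1.16 on the second, with a log2 of the summed acinar intensity of 14.72 to 17.15 over the group. Leukocyte markers, 23 measured of 24, were between -0.26 and -0.17 on replicates 1 to 3 and at 0.25, 0.47 and 0.92 on replicates 4 to 6. Duct markers, 13 measured of 15, were at -0.23, -0.38 and 0.12, then 0.15, 0.14 and 0.25. Endothelial markers, 16 measured of 18, were at -1.1, 0.05 and 0.49, then -0.04, 1.24 and 0.65. Stellate and fibroblast markers were at -0.46, 0.05 and 0.22, then 0.2, 0.29 and 0.19. Hepatocyte markers were at 0.16, -0.15 and -0.1, then -0.08, -0.05 and -0.09. Islet endocrine markers stayed between -0.01 and 0.07. Without replicates 4 to 6 the Ugt2b35 difference between Adβgal and untreated islets was 0.6 rather than 1.1, and that between AdNkx6.1 and Adβgal was -1.35. The list values are deviations from the average over all arrays, where 0 means average. Array intensities have no true zero, so no list shows a cell type to be absent. The part of other cell types in the level of Ugt2b35 was not tested. A probe set's signal can also include transcripts of near-identical Ugt2b copies, so the split between relatives is uncertain.

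**Figure D1:**
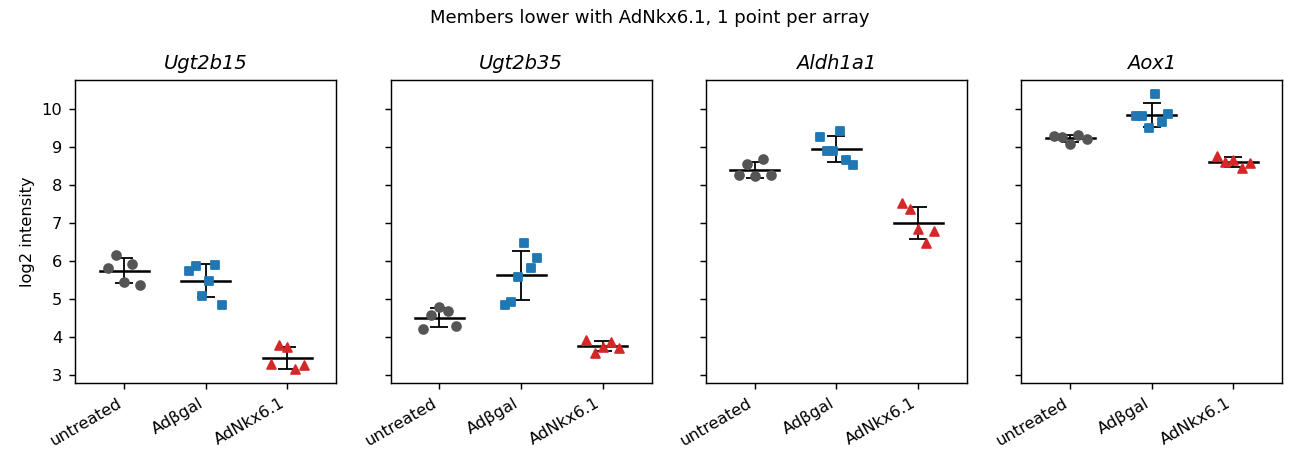
Log2 intensity of the 4 genes lower with AdNkx6.1, 1 point per array, by group (untreated n = 5, Adβgal n = 6, AdNkx6.1 n = 5); lines are means and bars SD. In every panel the AdNkx6.1 points lie below all others, and Ugt2b35 and Aox1 are also higher in Adβgal than in untreated islets without overlap.

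Aldh1a1, a cytosolic enzyme that turns retinaldehyde into retinoic acid, stood at 8.25, 8.54, 8.22, 8.68 and 8.25 in untreated islets. Adβgal values ran from 8.51 to 9.42 with a median of 8.89, and AdNkx6.1 values were 7.51, 7.36, 6.85, 6.48 and 6.78. The AdNkx6.1 arrays were again the lowest 5, while the Adβgal and untreated ranges overlapped. Its level with AdNkx6.1 was 3.84-fold lower than with Adβgal (-1.94 ± 0.19) and 2.62-fold lower than in untreated islets (-1.39 ± 0.2). The difference of 0.55 ± 0.19 between Adβgal and untreated islets was a 1.47-fold higher mean with overlapping arrays.

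Aox1, a molybdenum- and flavin-containing oxidase of aldehydes and nitrogen-ring compounds, had the smallest fold among the 4 lower genes in both comparisons with AdNkx6.1. Untreated islets gave 9.28, 9.25, 9.07, 9.31 and 9.21, Adβgal islets 9.49 to 10.4 with a median of 9.81, and AdNkx6.1 islets 8.76, 8.59, 8.66, 8.44 and 8.57. The 3 groups did not overlap, in the order Adβgal, untreated, AdNkx6.1. The level with AdNkx6.1 was 2.35-fold below Adβgal (-1.23 ± 0.12) and 1.54-fold below untreated islets (-0.62 ± 0.13), and Adβgal lay 1.53-fold above untreated islets (0.61 ± 0.12). The highest Aox1 value, 10.4, came from Adβgal replicate 4, the array with the highest acinar list. That array also gave the highest Adβgal values of Aldh1a1 (9.42), Ugt2b35 (6.47), Hsd17b2 (4.34) and Rbp7 (5.52), but not of Ugt2b15 or Sult2b1.

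**Figure D2:**
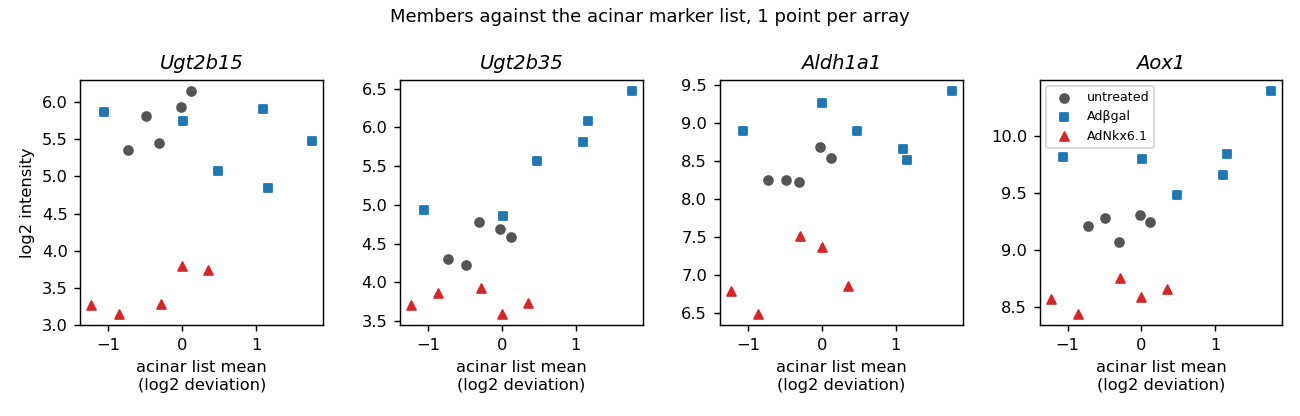
Log2 intensity of the 4 lower genes against the mean log2 deviation of 23 acinar markers from their average over all arrays, 1 point per array, coloured by group. Ugt2b35 is highest on the Adβgal arrays with the highest acinar list (1.1 to 1.76). The AdNkx6.1 arrays are the lowest for all 4 genes and have an acinar list of -1.23 to 0.35. The part of acinar cells in these levels was not tested.

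Sult2b1, which adds sulfate to cholesterol and other 3β-hydroxysteroids and is best known from skin, was among the 3 genes that were higher with AdNkx6.1. The probe set that represents it, the one of higher mean, read 5.86, 5.71, 5.76, 6.14 and 5.51 in untreated islets, 5.21 to 5.91 with a median of 5.56 in Adβgal islets, and 8.7, 8.55, 8.9, 8.61 and 8.57 with AdNkx6.1. The AdNkx6.1 arrays stood 2.64 or more above every Adβgal array, and the controls overlapped. This was an 8.71-fold higher level than Adβgal (3.12 ± 0.12) and a 7.32-fold higher level than untreated islets (2.87 ± 0.13), with -0.25 ± 0.12 between the controls. The control levels of Sult2b1 were dim, so its folds are not exact.

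The other Sult2b1 probe set also placed all AdNkx6.1 arrays above all controls. It read 5.11, 4.67, 4.94, 4.83 and 4.8 in untreated islets, 4.17 to 4.96 in Adβgal islets, and 6.2, 6.64, 7.02, 6.94 and 6.85 with AdNkx6.1. Its difference between AdNkx6.1 and Adβgal was 2.02 ± 0.16, a 4.06-fold higher level, so the 2 probe sets gave the same direction with folds that differed by more than 1.5 times. The mean of both gave 2.57.

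Hsd17b2, which oxidizes estradiol to estrone and testosterone to androstenedione and so lowers active sex steroids, showed the largest difference of the 7 genes in both comparisons with AdNkx6.1. It was dim in untreated islets, at 4.09, 4.03, 3.91, 4.16 and 4.16, and in Adβgal islets, at 3.77 to 4.34 with a median of 3.9. With AdNkx6.1 it was 7.55, 7.63, 8.31, 8.32 and 8.04. A gap of 3.21 separated the lowest AdNkx6.1 from the highest Adβgal array. The fold was 15.9 against Adβgal (3.99 ± 0.14) and 14.9 against untreated islets (3.9 ± 0.15); such folds rest on a dim control level and are not exact. The controls differed by -0.09 ± 0.14.

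Rbp7, a cellular retinol-binding protein of the fatty acid-binding protein family, read 4.32, 4.0, 4.43, 4.27 and 4.31 in untreated islets. Adβgal islets gave 4.15 to 5.52 with a median of 4.38, and AdNkx6.1 islets gave 7.27, 7.42, 8.0, 7.9 and 7.82. All AdNkx6.1 arrays lay above all controls, and the controls overlapped. The level with AdNkx6.1 was 9.02-fold that of Adβgal (3.17 ± 0.21) and 10.7-fold that of untreated islets (3.42 ± 0.22). Here too the folds rest on a dim control level and are not exact. The difference of 0.24 ± 0.21 between the controls came largely from Adβgal replicate 4, at 5.52, and was 0.04 without it.

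**Figure D3:**
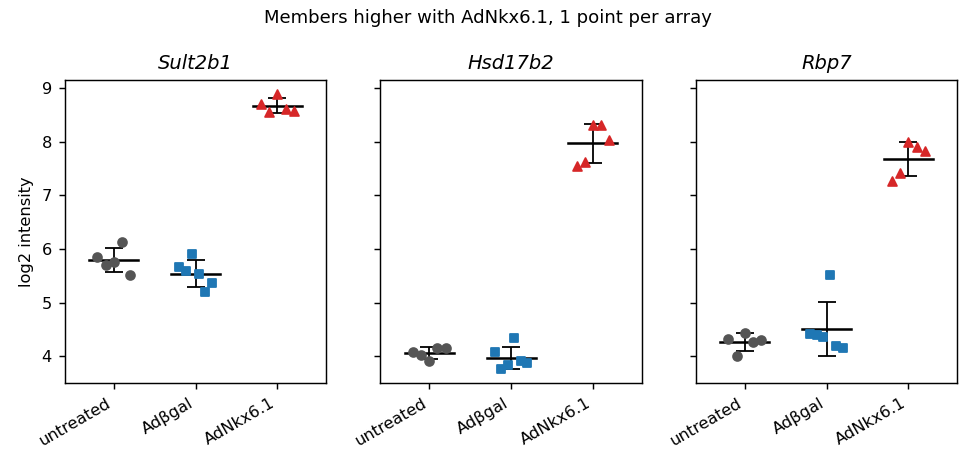
Log2 intensity of the 3 genes higher with AdNkx6.1, 1 point per array, by group (untreated n = 5, Adβgal n = 6, AdNkx6.1 n = 5); lines are means and bars SD. Sult2b1 is shown by its probe set of higher mean; the AdNkx6.1 arrays form a separate upper level in each panel, and 1 Adβgal array of Rbp7 stands apart at 5.52.

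Side by side, all 7 genes had groups that did not overlap in AdNkx6.1 against Adβgal, where 14.2% of all genes did not overlap and 25.0% passed an adjusted p of 0.05. The same held in AdNkx6.1 against untreated islets, where 32.1% did not overlap and 30.7% were called. Nothing is read from these counts, because the differences chose the genes. Between the controls, 2 of the 7 did not overlap (Ugt2b35 and Aox1, both higher with Adβgal). Of all genes, 6.88% did not overlap there, 2.05% with Adβgal above, while 7.01% were called and 2.84% were called higher. Nothing is read from this count either, since the genes were picked after the group differences were known. The 3 comparisons share arrays, so their values are not independent of each other.

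**Figure D4:**
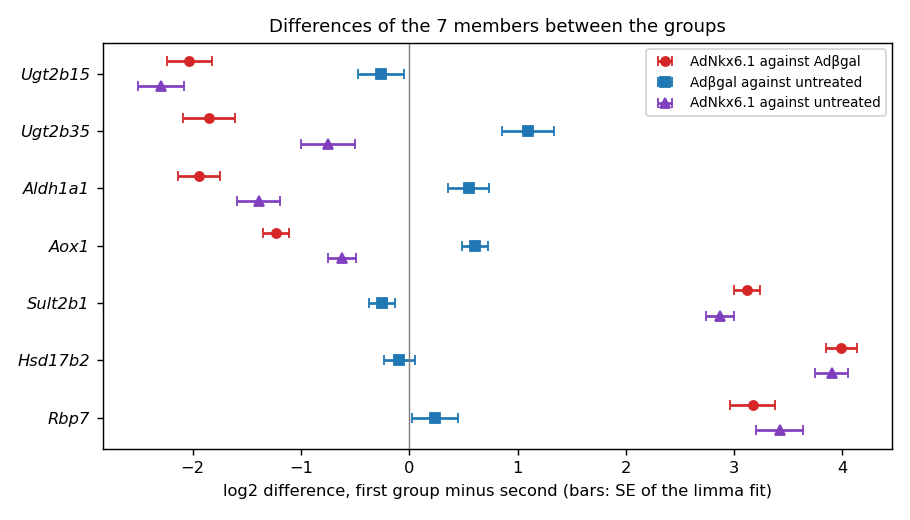
Log2 differences of the 7 genes in the 3 comparisons, first group minus second, with bars for the SE of the limma fit. The AdNkx6.1 comparisons lie on the same side of 0 for each gene, from -2.03 (Ugt2b15) to 3.99 (Hsd17b2) against Adβgal, while Adβgal against untreated islets runs from -0.26 to 1.1.

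For each of the 7, the genes whose log2 levels were most alike over the 16 arrays were found by Pearson's r among all 14217 genes; the points share the 3 groups and the same arrays, and no test was made. Ugt2b15 was closest to the neuronal membrane glycoprotein Gpm6a (r = 0.965), the serum retinol carrier Rbp4 (0.959) and the receptor phosphatase Ptprz1 (0.954). For Ugt2b35 the closest were Ikzf2, a zinc finger factor of lymphocytes (0.926), Ermard (0.924) and Slc23a4 (0.923). Aldh1a1 was closest to the transcription factor Myt1 (0.951), the receptor phosphatase Ptprd (0.947) and the taste G protein Gnat3 (0.946). Aox1 was closest to the phosphate transporters Slc17a4 (0.942) and Slc17a3 (0.936) and to the GABA receptor subunit Gabrb1 (0.940). The 3 higher genes shared neighbours: Tchh, the hair follicle protein trichohyalin, was among the top 3 of Sult2b1 (0.983), Hsd17b2 (0.992) and Rbp7 (0.986), and Bpifb1, a secreted airway protein, led for Hsd17b2 (0.995) and stood at 0.982 for Rbp7. Pianp (0.983) completed the list of Sult2b1 and Catsperz (0.993) that of Hsd17b2, and Hsd17b2 itself was among the 3 nearest of both Sult2b1 (0.984) and Rbp7 (0.985). The relatives Ugt2b15 and Ugt2b35 had an r of 0.58 with each other, against 0.9 between Ugt2b35 and Aox1 and 0.92 between Aldh1a1 and Aox1.

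The wider pathways were covered by 12 lists with 304 other genes, of which 248 were measured. In AdNkx6.1 against Adβgal 34 of the 248 rose and 25 fell past an adjusted p of 0.05 (limma, Benjamini-Hochberg over all genes), 23.8% against 25.0% of all genes, with a median difference of -0.01 against 0.02. All genes split into 2354 higher (16.6%) and 1206 lower (8.48%), or 2070 and 1800 after another quantile normalization. In AdNkx6.1 against untreated islets 43 rose and 36 fell (31.9% against 30.7%, median -0.02 against -0.01), and with arrays centred on their medians 37 rose and 50 fell. Between Adβgal and untreated islets 11 rose and 10 fell (8.47% against 7.01%, median -0.02 against -0.04), or 7 and 25 with arrays centred on their medians. This total of 21 was 12 without untreated replicate 2, 4 or 5 and 13 without Adβgal replicate 6. Over all genes that centring gave 1839 higher and 2902 lower in place of 2404 and 1956 for AdNkx6.1 against untreated islets, and 313 and 1473 in place of 404 and 593 between the controls. The pathways as a whole were thus called at close to the background share, and the genes below are single members of them. The counts of each list below stand beside the same shares of all genes. These were 25.0% called in AdNkx6.1 against Adβgal, 30.7% in AdNkx6.1 against untreated islets and 7.01% between the controls.

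The glucuronidation list held 23 genes beside Ugt2b15 and Ugt2b35, of which 8 were measured: the transferases Ugt2a1, Ugt2b1, Ugt2b7, Ugt2b10 and Ugt8, the enzymes Ugdh and Ugp2, which make the sugar donor, and Gusb, which removes glucuronic acid. None passed the limma test in AdNkx6.1 against Adβgal (0 of 8 called, 2 with an unadjusted p under 0.05, median -0.06). Ugt2b7, a liver isoform that conjugates steroids and opioids, had a difference of -0.86 ± 0.3 that missed the threshold, with means of 5.09 ± 0.27 and 5.95 ± 0.7. The relative Ugt2b1 was near 4 in all groups and differed by -0.14 ± 0.11 (adjusted p = 0.41).

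Of 17 measured sulfotransferases and cofactor genes (19 listed), 4 rose and 1 fell with AdNkx6.1 against Adβgal (median -0.01). Sult5a1 rose 1.68-fold (0.75 ± 0.19, adjusted p = 0.0075), as did Sult4a1, a brain sulfotransferase, by 1.64-fold (0.72 ± 0.2, adjusted p = 0.013), and Slc35b2, the Golgi transporter of the sulfate donor, by 1.34-fold (adjusted p = 0.0015). Sult1d1 fell 1.97-fold, from 5.89 ± 0.39 to 4.91 ± 0.45 (adjusted p = 0.004). Sult2a1, the liver hydroxysteroid sulfotransferase closest to Sult2b1 in class, stayed at 3.2 in both groups (difference 0.01 ± 0.09, adjusted p = 0.95).

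Steroid synthesis and dehydrogenase genes gave 2 higher and 4 lower of 30 measured (39 listed, median -0.01). Hsd11b2, which inactivates corticosterone, rose 3.27-fold, from 5.85 ± 0.64 to 7.56 ± 0.11 (1.71 ± 0.26, adjusted p = 0.00015). The aldo-keto reductase Akr1c19 fell 1.8-fold (-0.85 ± 0.11, adjusted p = 4.5e-05). Akr1c14, a 3α-hydroxysteroid dehydrogenase, fell 2.54-fold (adjusted p = 0.015); with Adβgal replicates 4 to 6 left out its difference was -0.58 and the adjusted p 0.18. In AdNkx6.1 against Adβgal these other members of the Hsd17b family missed the threshold: Hsd17b1, which makes estradiol, differed by -0.13 ± 0.1 (adjusted p = 0.36), Hsd17b3 by 0.04 ± 0.11 (0.82), Hsd17b4 by 0.18 ± 0.08 (0.12) and Hsd17b8 by 0.19 ± 0.08 (0.097). Against untreated islets Hsd17b8 rose 1.28-fold with AdNkx6.1 (0.36 ± 0.08, adjusted p = 0.0032). Hsd17b7, an enzyme of cholesterol synthesis, was lower with Adβgal than in untreated islets by 1.8-fold (adjusted p = 0.011; 0.053 without Adβgal replicates 4 to 6), and lower with AdNkx6.1 than in untreated islets by 1.69-fold (adjusted p = 0.0056). None of 9 measured genes of the list of steroid receptors and binding proteins (10 listed, among them Pgrmc1, Pgrmc2 and the plasma carrier Shbg) passed the limma test in AdNkx6.1 against Adβgal (0 called, 1 with an unadjusted p under 0.05, median -0.11), while 3 fell against untreated islets. These were the membrane heme-binding proteins Pgrmc1 (-0.24 ± 0.06, adjusted p = 0.0082) and Pgrmc2 (-0.25 ± 0.08, adjusted p = 0.022; 0.089 as the mean of its probe sets and 0.054 without AdNkx6.1 replicate 3 or untreated replicate 5) and the glucocorticoid receptor Nr3c1, which fell 1.38-fold (adjusted p = 0.0032), or by 0.34 on the log2 scale with an adjusted p of 0.1 when its probe sets were averaged.

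In the aldehyde dehydrogenase family 3 of 16 measured genes (18 listed) rose and 1 fell with AdNkx6.1 against Adβgal (median 0.05). The mitochondrial enzymes Aldh4a1 (2.21-fold, 1.14 ± 0.12, adjusted p = 6e-06), Aldh5a1 (1.81-fold, adjusted p = 0.0037) and Aldh6a1 (1.65-fold, adjusted p = 1.5e-05), which degrade proline, GABA and branched-chain amino acid products, were the ones that rose. Of the other retinaldehyde dehydrogenases, Aldh1a2 fell 1.34-fold (-0.43 ± 0.12, adjusted p = 0.016; 0.089 without Adβgal replicates 4 to 6), and Aldh1a3 differed by 0.7 ± 0.36 (adjusted p = 0.17). Among molybdenum enzymes and cofactor genes 1 of 8 measured (10 listed) rose and 1 fell (median 0.02). Mocos, which adds the sulfur that aldehyde oxidase and xanthine dehydrogenase need, rose 1.74-fold (adjusted p = 0.018), and Mocs2, of cofactor synthesis, fell 1.29-fold (adjusted p = 0.0035). Xdh, xanthine dehydrogenase, differed by -0.07 ± 0.14 (adjusted p = 0.78) and Aox4 by -0.05 ± 0.08 (0.71).

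Retinoid handling genes gave 5 higher and 2 lower of 28 measured (35 listed, median 0.06) in AdNkx6.1 against Adβgal. Rbp2, the intestinal cellular retinol-binding protein and a relative of Rbp7, rose 4.28-fold, from 7.94 ± 0.44 to 10.04 ± 0.36 (2.1 ± 0.2, adjusted p = 1.8e-06). Rdh12, a retinal reductase, rose 2.95-fold (1.56 ± 0.13, adjusted p = 3.1e-07), Bco1, which cleaves β-carotene, 2.74-fold (1.45 ± 0.23, adjusted p = 0.00022), and Crabp2, which carries retinoic acid to its receptors, 2.05-fold (1.04 ± 0.18, adjusted p = 0.00039). Rbp4, the carrier of retinol in blood, fell 2.2-fold, from 11.76 ± 0.28 to 10.62 ± 0.22 (adjusted p = 9.1e-06). These 5 genes were called in the same direction against untreated islets, Rbp2 at 3.16-fold and Rbp4 at 2.57-fold. Retinoid receptors and target genes gave 2 higher and 3 lower of 13 measured (17 listed, median -0.04): the receptor Rarg rose 1.63-fold (adjusted p = 1.2e-05), and the receptor Rarb, itself a target of retinoic acid, fell 1.66-fold (adjusted p = 0.002).

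**Figure D5:**
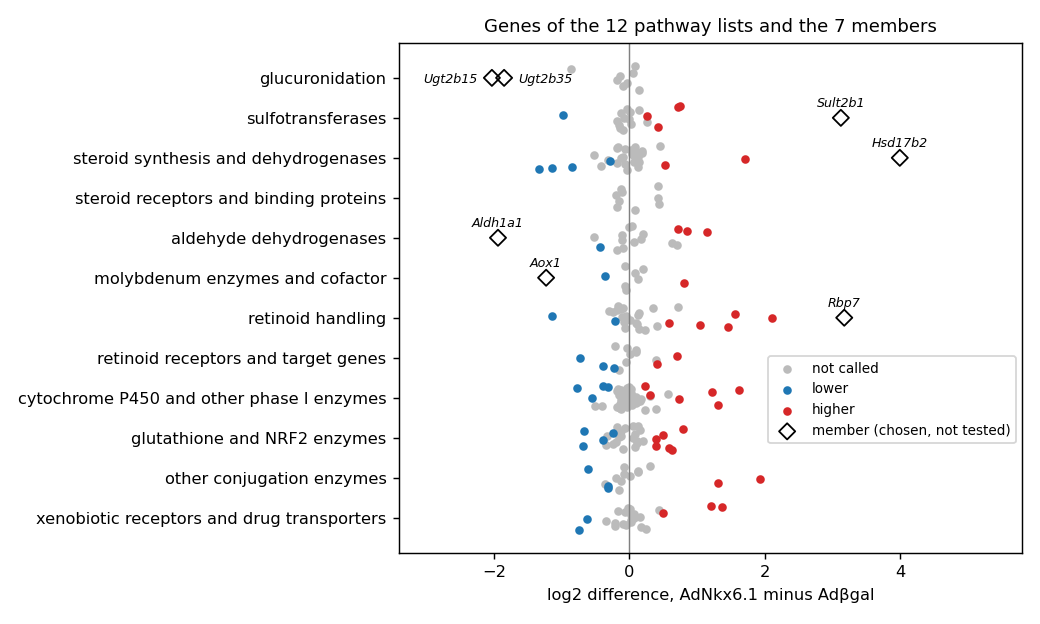
Log2 difference, AdNkx6.1 minus Adβgal, of the measured genes of 12 pathway lists (points, coloured where limma's adjusted p was under 0.05) and of the 7 chosen genes (open diamonds, not tested). Most listed genes lie near 0; Rbp2 at 2.1 and Gnmt at 1.93 are the highest of the tested points.

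Phase I enzymes of the cytochrome P450 list gave 6 higher and 4 lower of 51 measured (59 listed, median -0.01). Ephx1, microsomal epoxide hydrolase, rose 3.05-fold, from 8.32 ± 0.2 to 9.93 ± 0.18 (adjusted p = 1.7e-08). Cyp27b1, which makes active vitamin D, rose 2.46-fold (adjusted p = 1.1e-06) and Cyp4f1, a fatty acid hydroxylase, 2.33-fold (adjusted p = 9.3e-05), while monoamine oxidase B (Maob) fell 1.31-fold (adjusted p = 0.0026). Among other conjugation enzymes 2 rose and 3 fell of 15 measured (16 listed, median -0.08). The methyltransferases Gnmt, of glycine, and Gamt, of creatine synthesis, rose 3.82-fold (adjusted p = 1.4e-06) and 2.48-fold (adjusted p = 1.4e-06), and Nnmt, of nicotinamide, fell 1.53-fold (adjusted p = 7.6e-05). Xenobiotic receptors and drug transporters gave 3 higher and 2 lower of 23 measured (26 listed, median 0.02). The organic anion transporter Slco4a1 rose 2.59-fold (adjusted p = 3.4e-07) and the bile acid receptor Nr1h4 fell 1.54-fold (adjusted p = 0.00064). The vitamin D receptor Vdr rose 2.29-fold (adjusted p = 0.0079), a call lost without Adβgal replicates 4 to 6 (0.94, adjusted p = 0.08).

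Of the glutathione and NRF2 enzymes, 7 of 30 measured (32 listed) rose with Adβgal against untreated islets and none fell (23.3% called against 7.01% of all genes, median 0.23 against -0.04). Without Adβgal replicate 2, and likewise without replicate 4, 11 rose and 1 fell. With array weights 13 rose and 1 fell. Some settings gave fewer: 5 rose and 1 fell with arrays centred on their medians. Without untreated replicate 5, 5 rose and 0 fell, and with a replicate block 4 rose and 0 fell. Gsta1, an alpha class glutathione transferase, rose 2.81-fold, from 10.45 ± 0.21 to 11.94 ± 0.33 (1.49 ± 0.14, adjusted p = 3e-05), Gstp1 1.69-fold (adjusted p = 3.5e-05) and Gstm5 1.46-fold (adjusted p = 0.002). In AdNkx6.1 against Adβgal the list gave 6 higher and 4 lower (median -0.01): Gclc, the limiting subunit of glutathione synthesis, rose 1.55-fold (adjusted p = 1.9e-05) and Gsta1 fell 1.61-fold (adjusted p = 0.0022). Against untreated islets 13 rose and 3 fell with AdNkx6.1 (53.3% called against 30.7% of all genes, median 0.27), with Gsta1 1.75-fold and Gclc 1.92-fold higher.

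The marker lists gave the following counts past the limma threshold, with list medians, in AdNkx6.1 against Adβgal: 0 higher and 4 lower of 23 acinar genes (median -0.94), 5 and 1 of 13 duct genes (0.27), 0 and 1 of 16 endothelial genes (-0.11), 0 and 2 of 18 stellate and fibroblast genes (-0.14), 1 and 1 of 23 leukocyte genes (-0.28) and 2 and 2 of 13 hepatocyte genes (0.0). Of 14 islet endocrine genes 0 rose and 5 fell (-0.13). Over all genes, 16.6% rose and 8.48% fell in this comparison. Summed acinar intensity ranged from 15.06 to 15.79 (log2) in untreated and from 14.83 to 16.22 in AdNkx6.1 islets, and summed duct intensity from 15.89 to 16.02 in untreated, 15.88 to 16.11 in Adβgal and 16.29 to 16.38 in AdNkx6.1 islets. In AdNkx6.1 against untreated islets 0 acinar genes rose and 3 of 23 fell (median -0.07): the acinar transcription factors Ptf1a (-1.97 ± 0.43, adjusted p = 0.0024) and Bhlha15 (-0.54 ± 0.13, adjusted p = 0.0042), and the serpin Serpini2 (-1.68 ± 0.4, adjusted p = 0.0048). That comparison also gave 6 higher and 1 lower of 13 duct genes (0.24), 0 and 10 of 14 islet endocrine genes (-0.25), 0 and 0 of 16 endothelial genes (0.27), 0 and 1 of 18 stellate and fibroblast genes (0.06), 1 and 3 of 23 leukocyte genes (-0.09) and 2 and 2 of 13 hepatocyte genes (0.03). Over all genes, 16.9% rose and 13.8% fell there. In Adβgal against untreated islets 0 acinar genes rose and 1 fell (median 0.97), 2 islet endocrine genes (-0.12) and 1 hepatocyte gene (-0.07) fell, 1 gene rose in each of the endothelial (0.32), stellate and fibroblast (0.0) and leukocyte (0.2) lists, and no duct gene passed the test (0.17). Over all genes, 2.84% rose and 4.17% fell between these controls. Without Adβgal replicates 4 to 6 all 7 genes kept their direction in each comparison. Ugt2b35 then became -1.35 rather than -1.85 in AdNkx6.1 against Adβgal. Leaving out these arrays does not make the cell types of the groups equal. The part of these cell types in the differences of the 7 genes was not tested.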

How the data were processed

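Total RNA of rat islets was measured on 16 arrays: 5 untreated, 6 Adβgal and 5 AdNkx6.1. The table deposited by the authors holds probe set intensity on a linear scale, from 6.25 to 35765; the submitters' processing notes name RMA, and its version is not given in the sources used here. Log2 of each deposited intensity was taken, with a pseudocount of 0. Of 31099 probe sets, 57 controls were left out; 20826 had 1 gene symbol in the platform annotation, 436 several and 9780 none. For a gene with several, the probe set with the highest mean was kept, giving 14217 genes. Detection calls were not used here, so a fold against a dim level is not exact. Precision is limited by how many arrays each group has.

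Tests used lmFit, contrasts.fit and eBayes of limma 3.58.1 (R 4.3.3), in 1 fit over the 3 groups, 2-sided, Benjamini-Hochberg adjusted over all genes, with a threshold of 0.05; the code was tested on simulated data. P-values measure the spread between arrays that the labels call biological replicates. The labels' protocol gives 5 replicates a condition; all 6 Adβgal arrays were used.

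The 7 genes, the 12 pathway lists and the 7 marker lists were chosen with earlier results of these data known. Named genes are the 7, their measured relatives, up to 4 genes of smallest p per list and comparison, and the 3 genes most alike to each of the 7. Promoters came from a table of RefSeq promoters (GRCr8), in which 6 of the 7 genes were matched; the motifs were chosen after those promoters were read. Another 24 settings were run: other probe set, scaling, filter and variance choices, array weights, a replicate block, and arrays left out. Tables were made with pandas 2.3.3 and figures with matplotlib 3.10.9.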

Additional observations from a re-analysis of the deposited data

Results flagged for a closer look

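Of 168 groups of 5 or 6 arrays checked for a single array far from the rest, 12 stood out; chance alone gives about 1 in 20. Among the 7 genes this was Rbp7, where Adβgal replicate 4 read 5.52 (log2 intensity) and the other 5 arrays 4.15 to 4.42. The same array was low for the glucocorticoid receptor Nr3c1, at 10.87 (11.34 to 11.49), and for Pgrmc2, at 12.9 (13.21 to 13.29).

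In the other Adβgal groups, Mocos was highest on replicate 5 at 8.55 (others 6.79 to 7.34), Nnmt on replicate 5 at 9.72 (9.39 to 9.49) and Ephx1 on replicate 6 at 8.71 (8.14 to 8.31). Nr1h4 was lowest on replicate 6 at 9.9 (10.32 to 10.49) and Gsta1 on replicate 1 at 11.28 (11.97 to 12.13). With AdNkx6.1, replicate 3 was lowest for Sult1d1 at 4.13 (4.97 to 5.24) and for Sult4a1 at 9.65 (9.97 to 10.1), and replicate 4 for Cyp27b1 at 7.67 (7.88 to 7.9). In untreated islets Sult2a1 was lowest on replicate 2 at 3.0 (3.2 to 3.29).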

How the results depend on the processing

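No difference of the 7 genes changed direction under any of the 24 other settings; 489 of their values moved by less than the replicate spread and 3 by more: Aox1 in AdNkx6.1 against untreated islets became -0.75 after another quantile normalization, and Sult2b1 became 2.57 against Adβgal and 2.37 against untreated islets as the mean of its probe sets. Ugt2b15, Ugt2b35, Hsd17b2 and Rbp7 have a mean log2 intensity below 6, so the filter at 6 left them out. Of the small differences between the controls, Sult2b1 was -0.1 with array weights, -0.07 without Adβgal replicates 4 to 6 and -0.17 without untreated replicate 4, Hsd17b2 ran from -0.19 to -0.04, and Rbp7 was 0.13 with array weights.

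The number of genes called between Adβgal and untreated islets (997) was 1786 with arrays centred on their medians, 1790 with array weights and 552 without Adβgal replicates 4 to 6, and from 509 to 1503 with single arrays left out: 620, 532, 526 and 509 without untreated replicates 1, 2, 4 and 5, 647 without Adβgal replicate 6 and 1503 without Adβgal replicate 2. For the pathway genes (21) these numbers were 32, 43 and 13, and 12 to 30. Array weights also raised AdNkx6.1 against untreated islets from 4360 to 7469 genes and from 79 to 127 pathway genes; the cause was not tested.

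With the replicate block the control comparison gave 393 genes and 7 pathway genes, and 4 rather than 7 glutathione and NRF2 enzymes rose. Same-numbered arrays did not deviate together (correlations of -0.387 to 0.249 over 15 pairs), so the numbers were not taken as pairing. In that fit Ugt2b15 was -0.13 between the controls, and the adjusted p was 0.063 for Aldh1a2 and 0.059 for Mocos in AdNkx6.1 against Adβgal and 0.056 for Hsd17b7 between the controls.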
